A study of Homo sapiens with 6 samples.

Results

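Dividing cells need a steady supply of pyrimidines and deoxynucleotides, and the mRNA of 9 genes that make them was followed here in breast cancer cells cultured with or without 25(OH)D. The 9 genes were taken by symbol from the count table: CAD, DHODH, UMPS, RRM1, RRM2, RRM2B, TYMS, TK1 and DTYMK, out of 33451 genes listed. All of them passed the filter on low counts, as did 18183 genes in all. Polyadenylated RNA was sequenced from MDA-MB-453, an established human breast cancer cell line that is grown in culture without other host cells. The experiment group (EG) was kept for 5 days in 100 nM 25(OH)D, the main form of vitamin D in blood, and the control group (CG) for the same 5 days in its solvent, alcohol. Each group had 3 libraries, described in the methods as biological replicates, and both came from this 1 unmodified line, so the values describe a single cell line in culture. The p-values measure the spread between these 6 libraries.

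Cells build pyrimidines from small precursors by the de novo route. CAD carries out its opening steps and controls its rate, DHODH works in the inner mitochondrial membrane and links the route to respiration, and UMPS completes uridine monophosphate. Ribonucleotide reductase then turns ribonucleotides into deoxynucleotides with a large subunit, RRM1, and a small subunit, which is RRM2 in S phase or RRM2B outside it. TYMS methylates deoxyuridylate to thymidylate, TK1 recovers thymidine by salvage, and DTYMK carries the thymidylate from both sources on towards the triphosphate used in DNA. Several of these enzymes are targets of drugs given in cancer.

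Libraries held between 33268860 and 40928176 counts, so that 3 counts were worth 0.0720 to 0.0921 CPM (counts per 1e+06 counts of the library, scaled by TMM normalisation factors). Luminal epithelial markers summed to between 11707 and 12036 CPM in CG and between 9095 and 9290 CPM in EG. These 7 markers did not move together, as 4 were called lower and 2 higher. Of all genes tested, 16.5% were called lower and 17.3% higher. ERBB2, a marker of the line, rose from 349 ± 1.71 CPM in CG to 408 ± 10.5 CPM in EG (SD, 3 libraries per group). FGFR4, another, held 745 ± 25.3 CPM in CG and 755 ± 44.2 CPM in EG with overlapping groups. Leukocyte markers summed to at most 0.364 CPM and endothelial markers to at most 0.489 CPM in any library, with CD3E at 3 counts or fewer in every library. Fibroblast markers summed to between 36.5 and 39.0 CPM in CG and between 32.0 and 34.6 CPM in EG, nearly all of it COL1A1. The share of counts from mitochondrial genes was between 7.85% and 7.99% in CG and between 8.89% and 9.24% in EG, and with the mitochondrial genes left out the same 4 of the 9 genes were called, CAD, DHODH and DTYMK lower and RRM2B higher.

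The promoters are shown before the values because several regulators of these genes bind known letters close to the start. Windows of 250 bases before to 50 bases after each start came from RefSeq on GRCh38.p14 and were matched for 8 of the 9 genes. RRM2B was not matched. The CCAAT box, written CCAAT and searched on both strands, was present in windows of 6 of these genes (CAD, DHODH, RRM1, RRM2, TK1 and DTYMK) and in those of 39.7% of all 27305 gene symbols, or 34.6% of all 35116 windows. Stretches of 30 bases along the strand of the gene are shown for those nearest to the starts, with the CCAAT box or its reverse complement ATTGG in capitals.
RRM2, 123 bases before the start, chr2:10122604-10122633, plus strand: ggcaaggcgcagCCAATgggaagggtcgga
RRM2, 93 bases before the start, chr2:10122634-10122663, plus strand: ggcatggcacagCCAATgggaagggccggg
RRM2, 66 bases before the start, chr2:10122661-10122690, plus strand: ggggcaccaaagCCAATgggaagggccggg
TK1, 77 bases before the start, chr17:78187112-78187141, minus strand: ggccgggcgctgATTGGccccatggcggcg
TK1, 46 bases before the start, chr17:78187081-78187110, minus strand: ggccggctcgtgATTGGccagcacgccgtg
DTYMK, 92 bases before the start, chr2:241686890-241686919, minus strand: ccccggccccggCCAATcccttcgaatttg
DTYMK, 24 bases before the start, chr2:241686822-241686851, minus strand: tgttgacgccggCCAATgggagctccggaa
RRM1, 28 bases before the start, chr11:4094645-4094674, plus strand: gcatgtccatatCCAATggggcccatggga
DHODH, 22 bases before the start, chr16:72008710-72008739, plus strand: ccaccatctcctCCAATggaagggagacag

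At least 2 copies of the CCAAT box were held by 10.8% of all windows and at least 3 copies by 3.26%, and the RRM2 window shown held 3. RRM2 and TK1 each have a further start in RefSeq whose window does not hold these copies. Of the CAD window only the first bases, 250 before the start, read as the box. An E-box, written CACGTG, holds the letters bound by MYC with MAX. In these windows it was present for 8.77% of all symbols (7.26% of windows) and only for DHODH among the 8 genes. Bases outside the windows were not searched. The E2F letters searched were TTTCGCGC or TTTGGCGC or TTTCCCGC or TTTGCCGC, on both strands. They were present for 3.99% of symbols (3.31% of windows) and, among the 8 genes, only for TYMS. The CHR element of cell cycle genes, written TTTGAA, was present for 18.2% of symbols (15.2% of windows), UMPS and RRM1 among them. Capitals mark the E-box of DHODH and the reverse complement of the E2F letters of TYMS.
DHODH, 159 bases before the start, chr16:72008573-72008602, plus strand: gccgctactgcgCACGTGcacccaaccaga
TYMS, 39 bases before the start, chr18:657603-657632, plus strand: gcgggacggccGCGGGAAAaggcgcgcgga

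These matches are descriptions of the letters, and no binding was measured. The CCAAT box was held both by genes that fell in EG (CAD, DHODH and DTYMK) and by genes that did not pass the test (RRM1, RRM2 and TK1).

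The levels of the 9 genes moved in different directions after 5 days of 25(OH)D. CAD, DHODH and DTYMK fell, RRM2B rose, and UMPS, RRM1, RRM2, TYMS and TK1 did not pass the test of edgeR at an adjusted p of 0.05. The 3 genes called lower compare with 16.5% of all genes tested that were called lower, and the 1 gene called higher with 17.3% called higher. All 3 EG libraries lay below all 3 CG libraries in 6 of the 9 genes, against 22.9% of all genes tested, and above them in 1 gene, against 22.8%. The median log2 fold change of the 9 genes was -0.13, beside -0.011 over all genes tested. Their summed level was 668 ± 12.5 CPM in CG and 645 ± 20.4 CPM in EG (SD, 3 libraries per group), and the groups overlapped in this sum. In these bulk samples, fewer cells in a given phase of the cell cycle and less RNA per cell cannot be told apart.

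**Figure D1:**
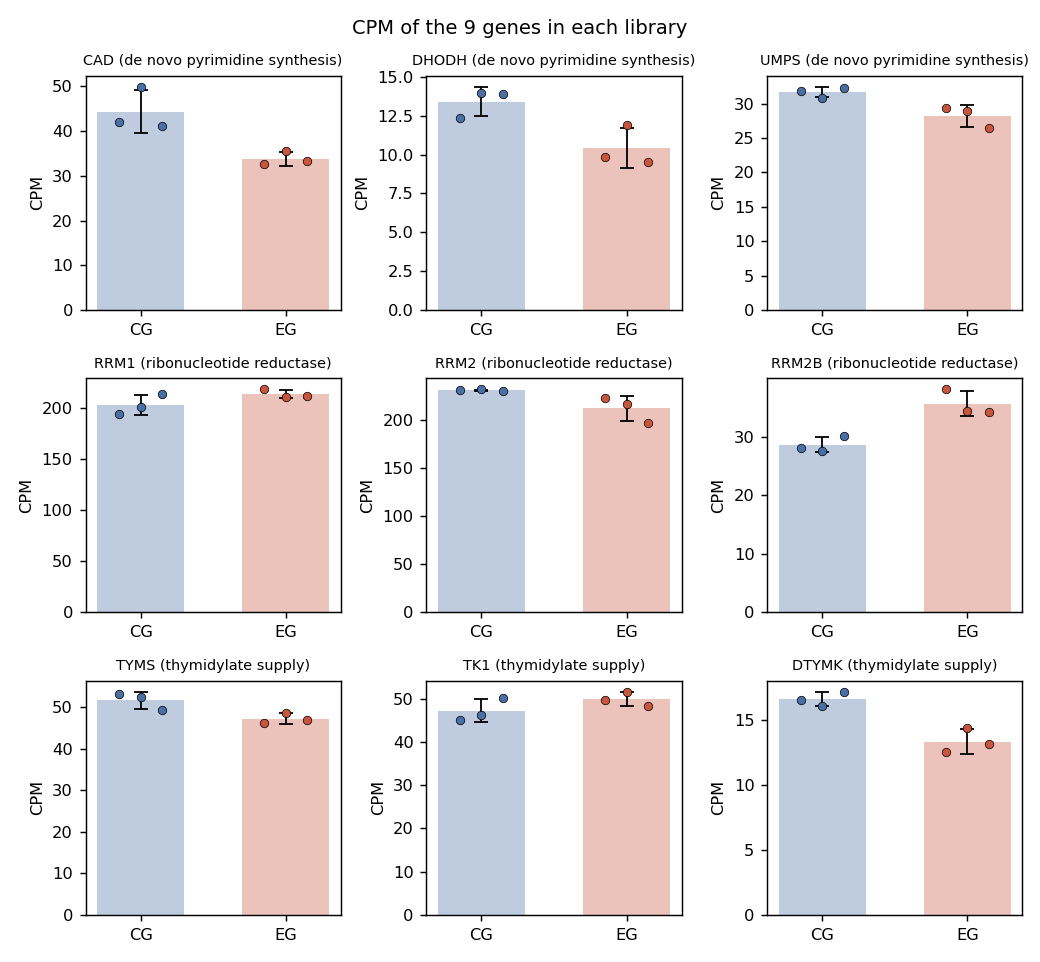
Level of each of the 9 genes in CPM in the 3 CG and the 3 EG libraries, where points are libraries and bars are group means with SD. EG libraries lie below all CG libraries for CAD, DHODH, UMPS, RRM2, TYMS and DTYMK, above them for RRM2B, and overlap them for RRM1 and TK1.

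In the de novo route CAD and DHODH were called lower and UMPS was not called. CAD, on the plus strand of chr2:27217390-27243943 (GRCh38), stood at 42.0, 49.9 and 41.3 CPM in the CG libraries and at 32.6, 35.5 and 33.3 CPM in the EG libraries. The groups did not overlap, and the second CG library was the highest of the 6. The mean went from 44.4 ± 4.80 CPM in CG to 33.8 ± 1.49 CPM in EG (SD, 3 libraries per group), a log2 fold change of -0.39 with a standard error of 0.0751 and an adjusted p of 0.000942. The fall of 23.8% was called in all 9 other settings tried and with each of the 6 libraries left out. The log2 fold change was between -0.44 and -0.35 over the settings. With a library left out it was between -0.43 and -0.29.

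DHODH, the mitochondrial enzyme of the route, is on the plus strand of chr16:72008588-72027664. It had 12.3, 14.0 and 13.9 CPM in CG and 9.87, 11.9 and 9.51 CPM in EG. The second EG library came close to the lowest CG library without reaching it. The mean fell from 13.4 ± 0.940 CPM to 10.4 ± 1.28 CPM (SD, 3 libraries per group), a log2 fold change of -0.36 with a standard error of 0.103 and an adjusted p of 0.0149. DHODH had between 310 and 529 counts per library, the fewest of the 9 genes, and its call was lost when CG replicate 2, CG replicate 3, EG replicate 1 or EG replicate 3 was left out, with adjusted p of 0.0676, 0.0509, 0.0645 and 0.0637.

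UMPS, which closes the route, lies on the plus strand of chr3:124730366-124749273. Its CG libraries held 31.8, 30.9 and 32.3 CPM and its EG libraries 29.4, 28.8 and 26.4 CPM. The groups did not overlap, but the difference was small. The log2 fold change was -0.17 (95% confidence interval -0.30 to -0.03) with an unadjusted p of 0.0227 and an adjusted p of 0.0633 in edgeR, so UMPS was not called. The confidence interval of UMPS and that of CAD overlapped, and the difference between the genes of the route was not tested.

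The subunits of ribonucleotide reductase did not move together. RRM1, the large subunit with the catalytic site, lies on the plus strand of chr11:4094707-4138876. It held 195, 201 and 214 CPM in CG and 218, 211 and 212 CPM in EG, so that the groups overlapped. Its log2 fold change of 0.07 (95% confidence interval -0.02 to 0.17) had an adjusted p of 0.214. Of its exons, 63 bases are shared with RRM1-AS1 on the opposite strand.

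RRM2, the small subunit of S phase, lies on the plus strand of chr2:10122328-10131419. These bounds take in the RRM2 CCAAT boxes printed above because an annotated start lies further upstream. The bounds of TK1, DTYMK and DHODH also take in their printed CCAAT boxes, and those of TYMS its E2F letters. RRM2 stood at 231, 232 and 231 CPM in CG and at 223, 217 and 197 CPM in EG. The CG libraries were nearly equal and every EG library was lower, the third EG library the most. The log2 fold change of -0.12 (95% confidence interval -0.22 to -0.03) had an adjusted p of 0.0504 and lay at the threshold. RRM2 was called lower in 6 of the 9 other settings and when EG replicate 1 was left out (adjusted p of 0.0356), whereas without EG replicate 3 its log2 fold change was -0.06. Stretches of 100 bases shared with another GENCODE 29 transcript made up 18.5% of its transcripts, so part of its reads may be counted uncertainly.

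RRM2B, the small subunit that serves cells outside S phase and during DNA repair, is on the minus strand of chromosome 8 and was the only one of the 9 genes that rose. Its CG libraries held 28.1, 27.6 and 30.04 CPM and its EG libraries 38.1, 34.5 and 34.3 CPM. Every EG library was above every CG library, the first EG library the most. The mean rose from 28.6 ± 1.28 CPM to 35.6 ± 2.13 CPM (SD, 3 libraries per group), a log2 fold change of 0.32 with a standard error of 0.0662 and an adjusted p of 0.00183. The rise of 24.5% was called in all 9 other settings and with each library left out. On the log2 scale it was between 0.23 and 0.33 over the settings. With a library left out it was between 0.27 and 0.36.

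**Figure D2:**
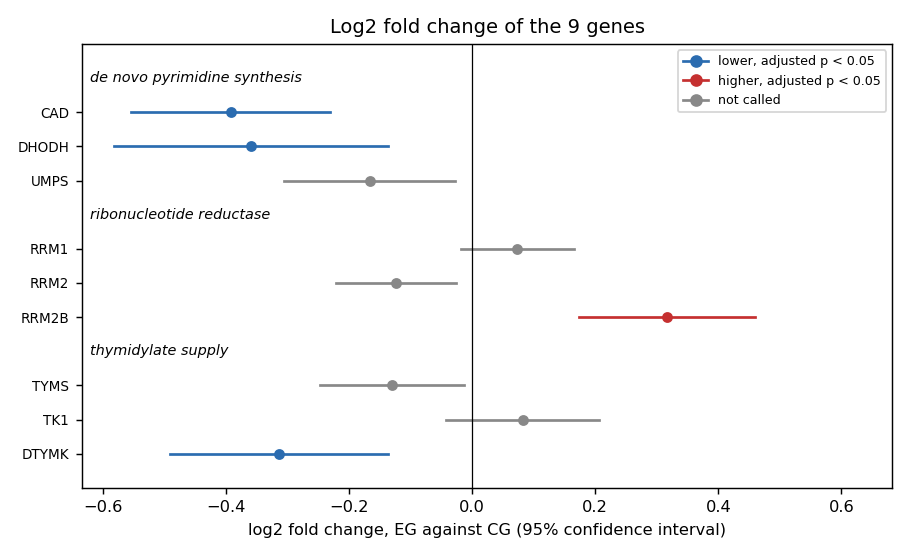
Fitted log2 fold change of EG against CG for each of the 9 genes, ordered by role, with the 95% confidence interval as a line. CAD, DHODH and DTYMK (blue) lie below 0, RRM2B (red) lies above 0, and the 5 genes in grey did not pass an adjusted p of 0.05.

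Of TYMS, TK1 and DTYMK, only DTYMK was called lower. DTYMK, on the minus strand of chr2:241675742-241686991, held 16.5, 16.1 and 17.2 CPM in CG and 12.5, 14.4 and 13.2 CPM in EG. The groups were well apart. Its mean fell from 16.6 ± 0.536 CPM to 13.4 ± 0.935 CPM (SD, 3 libraries per group), with a log2 fold change of -0.31, a standard error of 0.0821 and an adjusted p of 0.00852. The fall of 19.5% was called in all 9 other settings and with each library left out, between -0.36 and -0.26 on the log2 scale.

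TYMS, the target of fluoropyrimidine drugs, lies on the plus strand of chr18:657604-673578. It had 53.1, 52.5 and 49.4 CPM in CG and 46.1, 48.7 and 46.8 CPM in EG. The groups did not overlap by a narrow margin. The log2 fold change of -0.13 (95% confidence interval -0.25 to -0.01) had an unadjusted p of 0.0320 and an adjusted p of 0.0830 in edgeR. TYMS was called lower in 4 of the 9 other settings. On the opposite strand ENOSF1 shares 465 exon bases with it (18.8% of its length) and TYMSOS shares 183 (7.41%). The strand setting of the counting is not given in the sources used here. It therefore cannot be said whether reads of these stretches were kept apart.

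TK1, the salvage kinase, lies on the minus strand of chr17:78174075-78187233. It held 45.0, 46.3 and 50.1 CPM in CG and 49.7, 51.5 and 48.4 CPM in EG. The groups overlapped, and the log2 fold change of 0.08 (95% confidence interval -0.04 to 0.21) had an adjusted p of 0.312. The interval of TK1 did not reach that of DTYMK, which acts on its product, but the difference between the genes was not tested.

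Levels were set against each other per length of the gene, in RPKM, the reads scaled by gene length and by library total. In CG the reductase subunits were the most abundant, RRM1 with 49.4 ± 2.20 RPKM and RRM2 with 47.4 ± 0.328 RPKM, and these overlapped between libraries. Below them stood TK1 with 25.7 ± 1.34 RPKM and TYMS with 21.2 ± 0.916 RPKM, which did not overlap. A lower set was formed by DTYMK with 6.88 ± 0.193 RPKM, CAD with 5.35 ± 0.592 RPKM, RRM2B with 5.23 ± 0.209 RPKM and UMPS with 4.24 ± 0.0854 RPKM, in which only CAD and RRM2B overlapped as neighbours. DHODH was the least abundant with 1.96 ± 0.134 RPKM (SD, n = 3 for each gene). In EG the order changed in the lower set, where RRM2B with 6.31 ± 0.365 RPKM stood above DTYMK with 5.37 ± 0.410 RPKM and CAD with 3.95 ± 0.201 RPKM, while RRM1 with 50.4 ± 0.808 RPKM no longer overlapped RRM2 with 42.2 ± 2.78 RPKM.

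Ratios within a library do not depend on its scaling, and 5 of them were compared between the groups. RRM2 per RRM1 was 1.001, 0.972 and 0.908 in CG and 0.860, 0.867 and 0.783 in EG. RRM2B per RRM1 was 0.109, 0.103 and 0.106 in CG and 0.131, 0.123 and 0.122 in EG. The small subunits thus shifted against the large one in opposite directions, by -0.20 and 0.24 on the log2 scale. RRM2B per RRM2 was 0.109, 0.106 and 0.116 in CG and 0.153, 0.142 and 0.155 in EG, a rise of 35.8%, although RRM2 remained the far more abundant small subunit in every library.

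**Figure D3:**
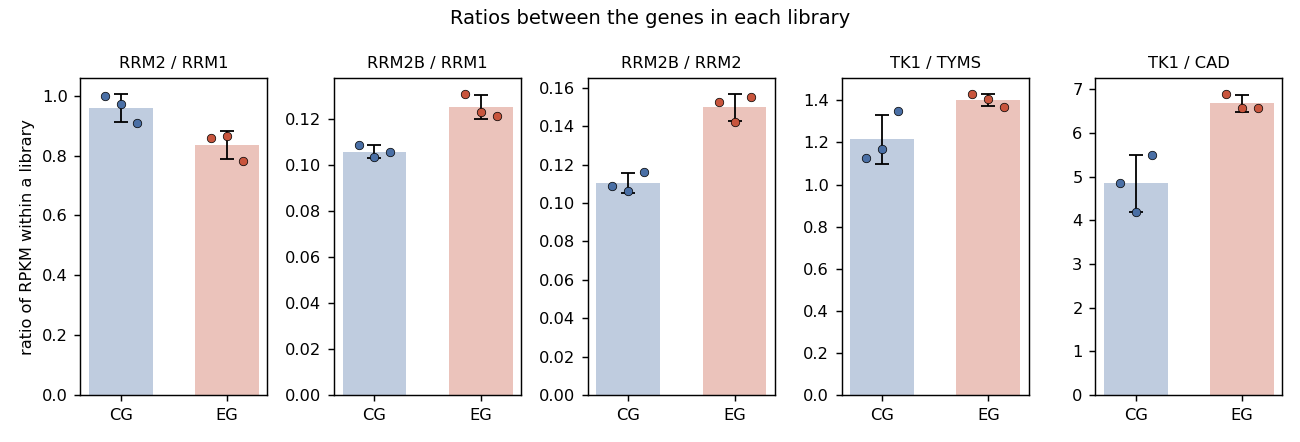
The 5 within-library ratios of RPKM in the 3 CG and the 3 EG libraries, where points are libraries and bars are group means with SD. The groups do not overlap in any of the 5 ratios, and those of TK1 to TYMS come closest, with 1.35 in the highest CG library and 1.37 in the lowest EG library.

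TK1 stood higher in every EG library against both other enzymes it was compared with. TK1 per TYMS was 1.12, 1.17 and 1.35 in CG and 1.43, 1.41 and 1.37 in EG, a difference of 0.21 on the log2 scale. TK1 per CAD was 4.85, 4.20 and 5.50 in CG and 6.90, 6.57 and 6.57 in EG, a difference of 0.47 on the log2 scale. The groups did not overlap in any of the 5 ratios. A two-sided exact permutation test gave p = 0.1 for each, also after adjustment over the 5 ratios, and 0.1 is the smallest p that 3 libraries against 3 allow.

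The neighbours of the 9 genes in the pathway moved in both directions. Of 43 further enzymes and transporters listed, 34 could be tested, of which 7 were called lower, 6 higher and 21 not called. The median over these genes was -0.0024 as a log2 fold change. These counts are close to the 16.5% and 17.3% of all genes. In thymidylate supply DUT, which hydrolyses dUTP and so yields the substrate of TYMS, fell from 100.5 ± 4.75 CPM to 78.5 ± 4.81 CPM (SD, 3 libraries per group), with a log2 fold change of -0.36 and an adjusted p of 0.000153. RP11-154J22.1 shares 533 exon bases with DUT on the opposite strand (14.5% of the length of DUT). DCTD, which deaminates dCMP to dUMP, had a log2 fold change of 0.09 (adjusted p of 0.636). CTPS1, the main CTP synthase of proliferating cells, fell by 0.20 on the log2 scale (adjusted p of 0.0171), whereas CTPS2 differed by -0.04 (adjusted p of 0.730). The call of CTPS1 was lost without CG replicate 2, EG replicate 2 or EG replicate 3, with adjusted p of 0.0884, 0.0991 and 0.0620.

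**Figure D4:**
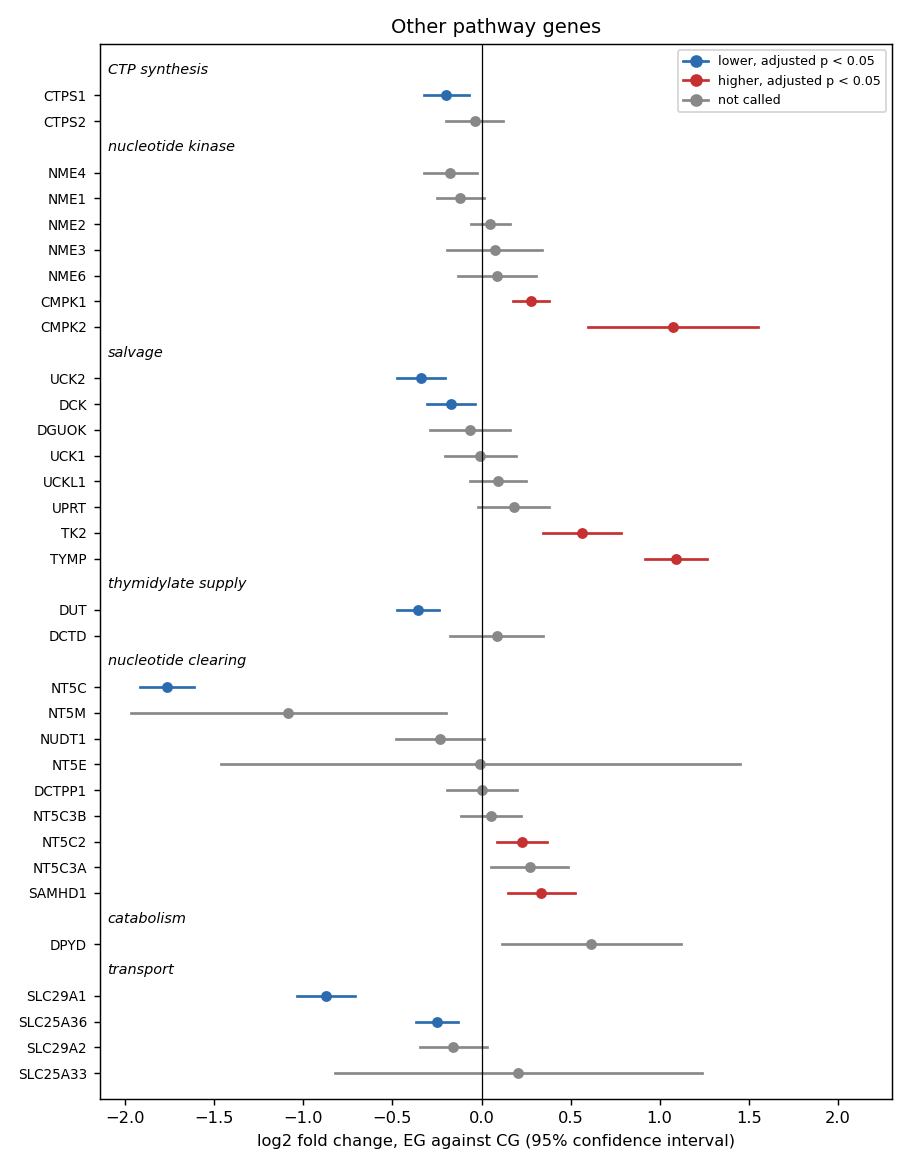
Fitted log2 fold change of EG against CG for 33 of the 34 further pathway genes tested, grouped by role, with the 95% confidence interval as a line. Blue marks 7 genes called lower, red 6 called higher and grey 20 not called, and both directions occur within salvage and within nucleotide clearing.

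Salvage enzymes moved in both directions. UCK2, a uridine and cytidine kinase, fell from 38.6 ± 2.02 CPM to 30.5 ± 1.16 CPM (log2 fold change of -0.34, adjusted p of 0.000710), and DCK, which phosphorylates deoxycytidine in the cytosol, fell by 0.17 (adjusted p of 0.0486). The call of DCK was lost without any library but CG replicate 3, the log2 fold change being -0.10 without CG replicate 1. It was also lost with DESeq2 size factors, with mitochondrial genes left out and in DESeq2 (adjusted p of 0.0583, 0.0661 and 0.0736). DCK shares 199 exon bases with MOB1B on the same strand. TK2, the mitochondrial thymidine kinase, rose from 15.3 ± 2.29 CPM to 22.6 ± 1.73 CPM (SD, 3 libraries per group), a log2 fold change of 0.56 with an adjusted p of 0.000544. RP11-403P17.4 shares 1056 exon bases with TK2 on the opposite strand. TYMP, which splits thymidine into thymine and a sugar phosphate, held 73.0, 66.6 and 58.5 CPM in CG and 149, 150 and 124 CPM in EG. This was a rise of 1.09 on the log2 scale (adjusted p of 1.13e-07), and ODF3B and SCO2 share 347 and 339 exon bases with TYMP on the same strand. DPYD, which begins the breakdown of uracil and thymine, had 1.89 CPM in CG and 2.90 CPM in EG and was not called (adjusted p of 0.0576), though it was without CG replicate 1 or EG replicate 3 (0.0240 and 0.0124).

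Of the kinases that act on pyrimidine monophosphates, CMPK1 in the cytosol rose from 71.5 ± 2.41 CPM to 86.8 ± 0.883 CPM (log2 fold change of 0.28, adjusted p of 0.000300). The equilibrative nucleoside transporter SLC29A1 fell from 27.5 ± 0.855 CPM to 15.0 ± 1.17 CPM (SD, 3 libraries per group), a log2 fold change of -0.88 with an adjusted p of 5.45e-07. SAMHD1, which hydrolyses deoxynucleoside triphosphates, rose by 0.34 (adjusted p of 0.00753), a call that limma did not make on log2(RPKM + 1) or log2(RPKM + 0.1) (adjusted p of 0.0615 and 0.0566). NT5C, a nucleotidase of the cytosol, changed most on the list, from 45.8, 43.0 and 42.8 CPM in CG to 13.7, 13.1 and 11.9 CPM in EG (log2 fold change of -1.77, adjusted p of 1.30e-10). However, 58.1% of its exon bases are shared on the opposite strand with RP11-649A18.3. That gene went from between 1057 and 1281 counts in CG to between 281 and 369 in EG. ARMC7 shares a further 41 bases of NT5C on the opposite strand (2.61%). Its counts went the other way, from between 1225 and 1504 in CG to between 6776 and 8101 in EG. Without the strand setting of the counting, it cannot be said whether reads of the shared bases were kept apart. The remaining calls were named after their values were seen. They were CMPK2 (1.07) and NT5C2 (0.23) among the higher genes and SLC25A36 (-0.25) among the lower ones, all as log2 fold changes. CNNM2 shares 1892 exon bases with NT5C2 on the opposite strand (36.7% of the length of NT5C2).

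Over the 6 libraries, most of the 9 genes are set here beside the pathway gene with the most similar pattern by Pearson's r of log2 CPM. CAD was most like UCK2 (r = 0.973) and TYMS was most like DUT (r = 0.944). DHODH and DTYMK were most like each other (r = 0.923), and RRM2B was most like SAMHD1 (r = 0.955). The genes whose groups overlapped were most like NME2 in the case of RRM1 (r = 0.949) and like RRM1 in the case of TK1 (r = 0.857). These values are descriptions over 6 libraries that share their scaling and the difference between the groups. For the deviations from the group means, r was between 0.694 for DHODH with DTYMK and 0.942 for RRM1 with NME2 among these pairs.

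Genes of the cell cycle were mostly lower in EG, where edgeR called 16.5% of all genes tested lower and 17.3% higher. Of 32 S phase genes, 24 were called lower in edgeR, with a median log2 fold change of -0.24, and RNASEH2A (-0.58), UHRF1 (-0.41) and GINS4 (-0.85) had the smallest p. Of the S phase genes 0 were called higher by edgeR, DESeq2 or limma, and 0 were higher at an unadjusted p under 0.05. Of 19 genes of G2 and mitosis, 18 fell, with a median log2 fold change of -0.57, led by CENPF (-0.71), CCNB2 (-0.87) and TOP2A (-0.77), and again 0 were called higher by any of these tools or at an unadjusted p under 0.05. The median of the 9 genes (-0.13) lay between that of all genes (-0.011) and that of the S phase genes (-0.24). The difference between lists was not tested.

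**Figure D5:**
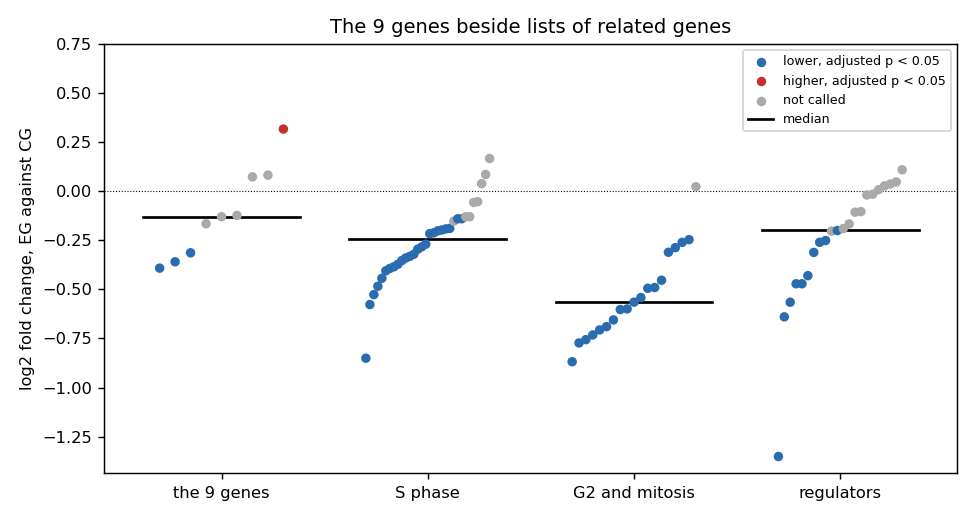
Fitted log2 fold changes of EG against CG for the 9 supply genes and for the lists of S phase, G2 and mitosis, and regulator genes, where each point is a gene, ordered by value within its list, and the horizontal line is the median of the list. The medians are -0.13 for the 9 genes, -0.24 for S phase, -0.57 for G2 and mitosis and -0.20 for regulators.

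Among 22 transcription factors known to act on the supply genes, 10 were called lower and 0 higher in edgeR. The shares of all genes tested were 16.5% lower and 17.3% higher. Of these factors, 0 were higher in DESeq2, in limma and at an unadjusted p under 0.05. MYC, an activator of CAD and other genes of nucleotide synthesis, fell from 28.8 ± 1.10 CPM to 11.3 ± 1.33 CPM (SD, 3 libraries per group), a log2 fold change of -1.35 with an adjusted p of 2.30e-08. E2F2 and FOXM1 fell by 0.64 and 0.43 on the log2 scale. E2F1, the E2F factor most often tied to RRM2, TYMS and TK1, had 33.3 ± 2.44 CPM in CG and 31.0 ± 1.01 CPM in EG and was not called (adjusted p of 0.270). The part of any of these factors in the levels of the 9 genes was not tested.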

How the data were processed

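The authors deposited a table of counts, whole numbers of reads per gene for 6 libraries, and a table of RPKM values. The RPKM values equal the deposited count divided by gene length and by library total (largest relative difference 2.23e-13). The submitters' processing notes name Trimmomatic 0.36, featureCounts of Subread 1.5.1, edgeR 3.12.1 and GRCh38. The aligner, the annotation release and the strand setting of the counting are not given in the sources used here. The library kit kept strand, and reads were paired.

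Counts were tested in R 4.3.3 with edgeR 4.0.16 (TMM factors, default low-count filter with a minimum count of 10, quasi-likelihood test without covariates, Benjamini-Hochberg adjustment over the 18183 genes tested, calls at an adjusted p under 0.05). The biological coefficient of variation was 0.0788. The test was checked on simulated counts. Libraries were assigned to CG or EG from their labels. The 9 alternatives were DESeq2 size factors, upper-quartile factors, library sizes alone, mitochondrial genes left out, no filter, DESeq2 1.42.0, limma 3.58.1 on log2(RPKM + 1) or log2(RPKM + 0.1), and a replicate block, besides leaving out each library. Ratios of RPKM were compared by exact permutation with scipy 1.17.1 in Python 3.11.15. Gene positions and shared exons come from the exon coordinates given with the deposited counts. Shared exons are given only for some of the genes named. Transcript stretches of 100 bases come from GENCODE 29, and promoters from RefSeq on GRCh38.

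The 9 genes, the lists and the tests were chosen with earlier results of these data known. The genes named were the 9, up to 3 per list and direction with the smallest p among those called, the most similar pathway gene of each, and DUT, DCTD, DCK, TK2, SAMHD1, CTPS1, CTPS2, CMPK1, SLC29A1, TYMP, DPYD, MYC and E2F1. Some genes, 1 list and the sum of 1 marker list of the plan are not reported here. The basal epithelial markers also read summed to between 0.480 and 1.17 CPM over all libraries.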

Additional observations from a re-analysis of the deposited data

How the results depend on the processing

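The calls of CAD, DTYMK and RRM2B held under all 9 alternatives and with each library left out. With upper-quartile factors or library sizes alone, 6 of the 9 genes were called lower instead of 3, and 5 with limma on log2(RPKM + 1) or log2(RPKM + 0.1). The added genes were RRM2 and TYMS in all of these settings and UMPS with the first pair. In the same order of settings, 3613, 3667, 3167 and 3169 of all genes were called lower, against 3004 in the main test. Over the 39 genes with a test that were chosen to be named, including those not reported here, 545 of the recomputed fold changes kept their direction and their side of the threshold, 20 passed it newly, 19 no longer passed it, and 1 changed sign, CTPS2 (between -0.077 and 0.017 with 1 library left out, the latter without EG replicate 3). The labels link same-numbered libraries only by that number and do not say whether they were handled together. The r of their deviations was -0.07, -0.01 and -0.05. With a replicate block, 4 of the 9 genes were called lower, RRM2 being the addition, 1 higher, and 2896 and 3057 of all genes lower and higher, against 3004 and 3138 without it. The exact test of paired ratios cannot go below p = 0.25. The causes of these changes were not tested. The median log2 fold change of all genes shifted by -0.044 with library sizes alone, the widest shift.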
